A study of Mus musculus with 14 samples.

Results

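Cathepsins are the proteases of the lysosome, and liver sinusoidal endothelial cells (LSECs), the scavenger cells that line the liver sinusoids, use them to break down what they take up from the blood. The 10 cathepsins described here are Ctsa, Ctsb, Ctsc, Ctsd, Ctsh, Ctsj, Ctsk, Ctsl, Ctss and Ctsz, out of 54524 genes in the count table, and all 10 passed the filter on low counts that left 26626 genes. The family was selected on the levels of Ctsj, a rodent cathepsin known from the placenta, which was strongly raised at day 1 and day 3, so the values of Ctsj are given as a description and without a test in every comparison. The other 9, called lysosomal cathepsins below, were taken for comparison and were tested.

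RNA was sequenced from LSECs of male Balb/c mice, 10 to 12 weeks old by the sample labels (the methods of the study give a slightly higher range). Cells came from 4 untreated (healthy) mice and from mice killed 1 day (n = 2), 3 days (n = 4) or 7 days (n = 4) after a single intraperitoneal dose of carbon tetrachloride (CCl4), 0.5 µl per g body weight in mineral oil. CCl4 is a solvent that kills hepatocytes, and the labels name no group injected with mineral oil alone. The LSECs were sorted as CD32+ F4/80- and negative for UV autofluorescence and propidium iodide, to which the methods of the study add negativity for CD45, a marker of white blood cells, and the day 1 group is small because samples with low RNA quality were dropped.

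Depth was high, and RNA of markers of other cell types was detected in the sorted samples. The paper reports a high purity of the sorted cells by staining, and the source of this marker RNA was not tested. Total counts ran from 46401496 to 103912264 per sample, and levels are given as CPM, the counts relative to library size, scaled by the TMM method. All 10 LSEC and endothelial markers were detected in every sample, with summed levels of 16313 to 19678 CPM in healthy samples, 12416 and 15178 CPM at day 1, 10504 to 14435 CPM at day 3 and 9797 to 14130 CPM at day 7. All 10 markers of stellate cells and fibroblasts rose at day 3 and at day 7, when 4.62% and 2.19% of all tested genes rose. Among them is Reln, which the paper also lists as enriched in healthy human LSECs. Monocyte and neutrophil markers (11 genes) summed to 520 to 1412 CPM in healthy samples and to 7929 and 4249.9 CPM at day 1. At day 3 this sum was 13143 and 7956 CPM in replicates 1 and 2 but 1493 and 1384 CPM in replicates 3 and 4, and at day 7 it was 4186 to 9679 CPM. Lyz2 made up most of it at day 3 and day 7, with 1266 to 8376 and 3919 to 9304 CPM. At day 7 Ccr2, Itgam and Csf3r also lay above every healthy sample. The rest of the list, S100a8, S100a9 and Ly6c2 among them, overlapped with healthy samples at day 7. Hepatocyte markers (10 genes) summed to 301 to 531 CPM in healthy replicates 1 to 3 but to 12432 CPM in healthy replicate 4, to 37.7 and 192 CPM at day 1, 979 to 3359 CPM at day 3 and 857 to 6595 CPM at day 7, and their part in the cathepsin levels was not tested. Day 3 replicates 3 and 4 also had the fewest detected genes of their group (28203 and 22986 against 34678 and 34768). Fold changes of the lysosomal cathepsins at day 3 against healthy samples are therefore also given without these replicates where that changed a call. In bulk samples, a change in the number of cells of a type and a change in RNA per cell cannot be told apart.

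Most cathepsins are cysteine proteases of the papain type. They are made as inactive proenzymes, carried to the lysosome by mannose 6-phosphate receptors, cut to the active form at acid pH, and held in check by cystatins and related inhibitors. Of the family described here, Ctsd is an aspartic protease and Ctsa a serine carboxypeptidase, and the other 8 are cysteine cathepsins. The stretch around the codon of the active-site cysteine (in capitals) is shown for Ctsj and for 4 of its lysosomal relatives, because it places Ctsj among them; each run of 45 bases is mRNA sense, from the main transcript of GENCODE vM21 on GRCm38, and crosses 1 exon junction, so that its genomic interval includes an intron.
Ctsj: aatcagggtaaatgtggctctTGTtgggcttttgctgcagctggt
Ctsl: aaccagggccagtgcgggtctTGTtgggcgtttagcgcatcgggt
Ctsk: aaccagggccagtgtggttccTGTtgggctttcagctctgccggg
Ctss: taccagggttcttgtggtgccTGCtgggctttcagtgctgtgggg
Ctsb: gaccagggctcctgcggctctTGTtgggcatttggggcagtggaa
These runs lie at chr13:61003210-61003712 on the minus strand for Ctsj (exons 4 and 5) and at chr13:64367054-64367865 on the minus strand for Ctsl (exons 5 and 6). On the plus strand they lie at chr3:95501701-95502620 for Ctsk, chr3:95543157-95545371 for Ctss and chr14:63135696-63136424 for Ctsb, each across exons 4 and 5. The cysteine codon was found by a script from the residues Cys-Gly-Ser-Cys (Cys-Gly-Ala-Cys in Ctss), and it is codon 138 in both Ctsj and Ctsl.

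Over the whole coding sequence, Ctsj was closest to its neighbours on chromosome 13. In global alignments, 78.0% of aligned bases were identical between Ctsj and Cts6, 75.1% for Ctsr and 72.7% for Ctsq, and the 8 cathepsins of the placental cluster ranged from 68.0% to 78.0%. Among the lysosomal cathepsins the identity was 62.6% for Ctsl, 57.1% for Ctss and 55.6% for Ctsk. It was 47.1% to 52.3% for the other 6, among them Ctsa at 47.6% and Ctsd at 49.2%, which belong to other protease classes. None of the 1471 distinct 50-base stretches of the Ctsj transcripts was found in a transcript of another gene, so reads of that length on Ctsj were not shared with a related cathepsin in this annotation.

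Ctsj (ENSMUSG00000055298, chr13:61000179-61005959, minus strand, 8 exons in its main transcript) was at or near 0 in healthy LSECs. The counts were 0, 24, 17 and 0 in the 4 healthy samples, or 0, 0.282, 0.177 and 0 CPM, and a count under 3 was taken as not detected, a floor that covers counting error only. At day 1 the level was 64.7 and 91.2 CPM, from 5410 and 8285 counts. At day 3 it was 26.4, 54.5, 10.0 and 10.3 CPM. At day 7 it was 0.769, 1.29, 1.79 and 1.87 CPM, from 74, 92, 81 and 165 counts. Every injured sample lay above every healthy sample, day 1 lay above all of day 3, and day 3 lay above all of day 7.

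The fitted log2 fold change of Ctsj against healthy LSECs was 9.41 (SE 1.15) at day 1, 7.78 (SE 1.05) at day 3 and 3.63 (SE 0.91) at day 7. Because 2 of the 4 healthy libraries hold no read of Ctsj, these values rest on the 24 and 17 counts of healthy replicates 2 and 3. The ratios of the group means were 679.6 at day 1, 221 at day 3 and 12.5 at day 7. From day 1 to day 3 the log2 fold change was -1.62 (SE 0.89), and from day 3 to day 7 it was -4.15 (SE 0.87). Without day 3 replicates 3 and 4, which had the lowest Ctsj levels of their group, the day 3 value was 8.34. Leaving out 1 sample at a time gave a day 1 value between 8.97 and 10.32, a day 3 value between 7.10 and 8.69 and a day 7 value between 3.21 and 4.55, in each case with the highest value without healthy replicate 2. These values chose the family and are not evidence for it.

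**Figure D1:**
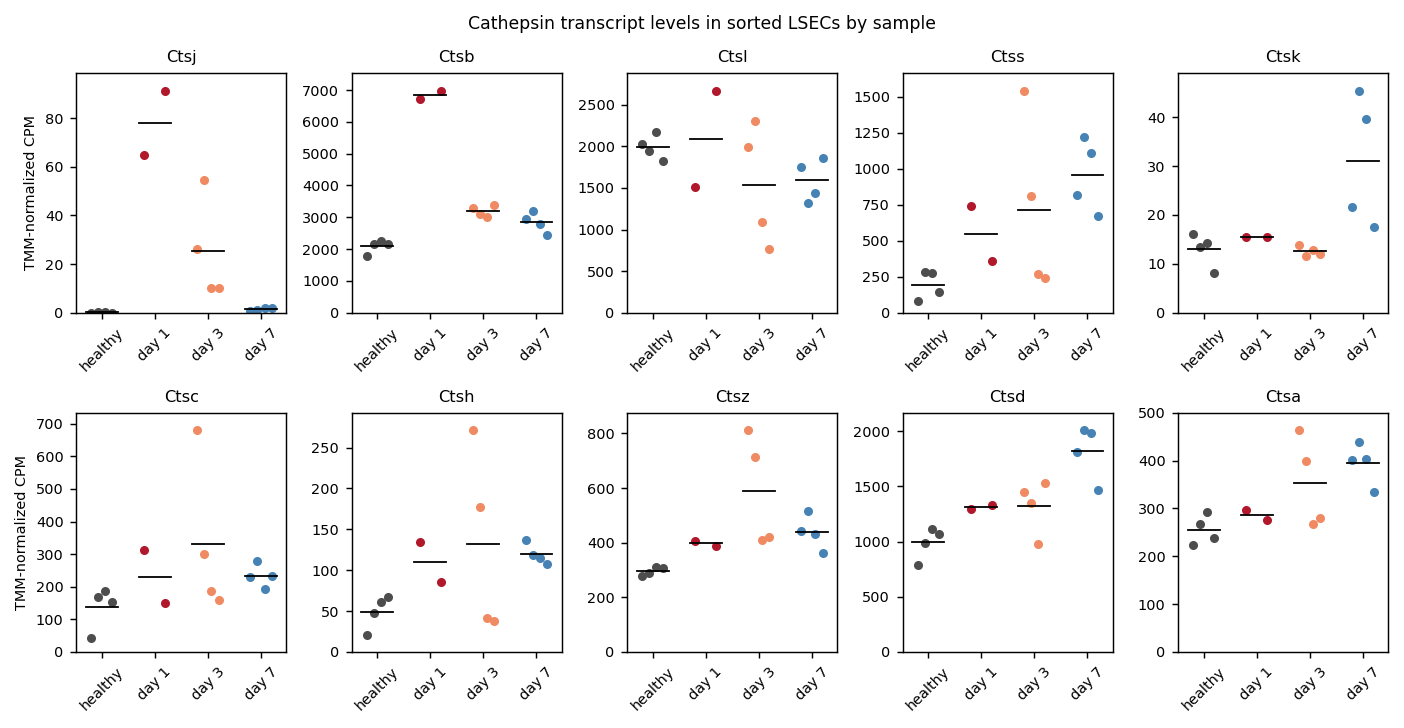
TMM-normalized CPM of the 10 cathepsins (y axes, each from 0) in healthy LSECs and 1, 3 and 7 days after CCl4, with 1 point per mouse (n = 4, 2, 4 and 4) and a bar at the group mean. Ctsj and Ctsb were highest at day 1, and Ctsd, Ctsk and Ctss had their highest mean at day 7. In Ctss, Ctsc and Ctsh day 3 replicates 1 and 2 lay far above replicates 3 and 4. Replicates 1 and 2 also lay above replicates 3 and 4 in Ctsz, Ctsa, Ctsl and Ctsj.

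Ctsj was raised in a cluster whose other cathepsins stayed at or near 0. The cluster holds Cts3, Cts6, Cts7, Cts8, Ctsm, Ctsq, Ctsr and Ctsll3, which are expressed in trophoblast. Cts6, Cts7, Ctsm and Ctsll3 had no count in any of the 14 samples. Cts3, Ctsq and Ctsr reached 3, 5 and 5 counts at most, each in 1 sample. Cts8, the only other cathepsin of the cluster with 3 or more counts in several samples, had them in 6, with at most 19 counts.

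Trophoblast markers (8 genes) summed to 0.379 to 0.687 CPM in healthy samples, 1.11 and 1.43 CPM at day 1 and 0.551 to 0.920 CPM at day 7. At day 3 the sum was 2.02 and 1.51 CPM in replicates 1 and 2 but 0.546 and 0.287 CPM in replicates 3 and 4. None of the 4 that could be tested was called in any comparison. Of these 4, Plac1 alone lay above every healthy sample at day 1, at 0.754 and 1.05 against 0 to 0.183 CPM (log2 fold change 3.08, edgeR quasi-likelihood test, adjusted p = 0.304). The defining markers Tpbpa and Prl3d1 had no count in any sample. Tpbpa lies between Ctla2a and Ctsj on the chromosome, with its start 64.0 kb from that of Ctsj. On the other side the start of Ctsq, also near 0, is 34.7 kb away.

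Of the 12 listed genes of the cluster and its surroundings, only 3 passed the filter, so no count over the list is read as a result: Ctla2a, Ctla2b and Cts8. Ctla2a and Ctla2b encode small proteins that resemble the propeptide of cysteine cathepsins and inhibit Ctsl-like enzymes. Ctla2a was at 214, 179, 134 and 112 CPM in healthy samples and at 1493 and 1750.3 CPM at day 1. It was at 556, 886, 196 and 106 CPM at day 3 and at 73.9 to 97.2 CPM at day 7. Ctla2a rose at day 1 (log2 fold change 3.34, SE 0.57, edgeR quasi-likelihood test, adjusted p = 0.00547) and fell from day 3 to day 7 (-2.33, SE 0.50, adjusted p = 0.0363). At day 3 its samples overlapped with healthy ones (1.45, SE 0.49, adjusted p = 0.0946).

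Ctla2b was at 56.5 to 99.8 CPM in healthy samples, 237 and 303 CPM at day 1, 23.7 to 115 CPM at day 3 and 26.2 to 40.3 CPM at day 7. It fell from day 1 to day 3 (-1.98, adjusted p = 0.0348). The reads of this pair are partly shared: 69% of the 50-base stretches of Ctla2b and 25.8% of those of Ctla2a occur in another annotated gene. For both, most of these lie in the overlapping Gm49391. Others lie in Gm49392 (341 of Ctla2b) and in each other (268). Ctla2a and Ctsj were both highest at day 1, and both were lower in day 3 replicates 3 and 4 than in replicates 1 and 2.

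**Figure D2:**
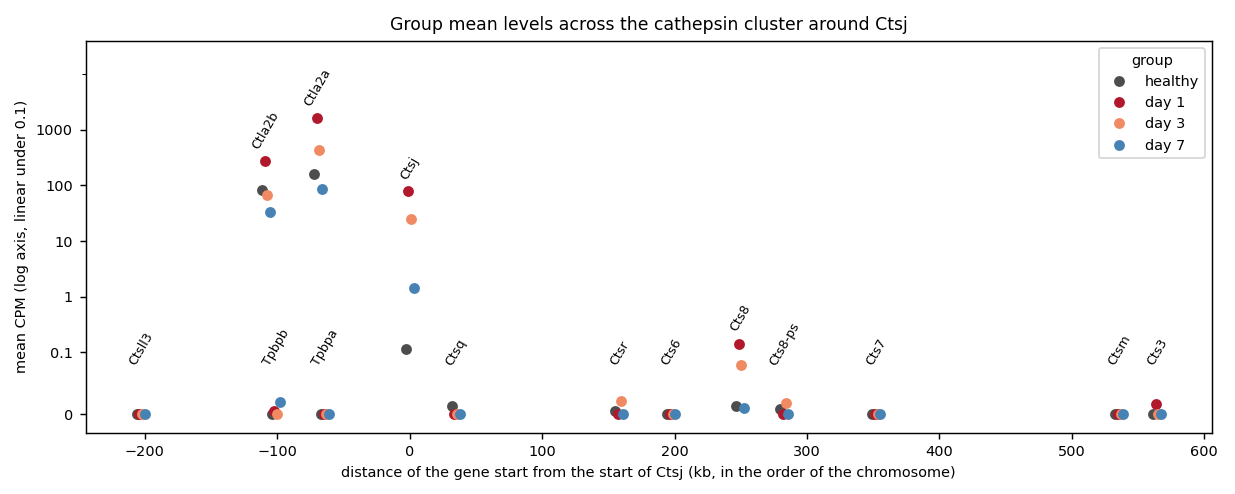
Group mean CPM (y axis, logarithmic above 0.1 and linear below it) of Ctsj and the genes around it against the distance of their start from the start of Ctsj in kb, with 1 colour per group. Ctsj, Ctla2a and Ctla2b lie above the floor, with day 1 as the highest group, while the 8 other cathepsins of the cluster stay near 0.

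Some promoters of the family held a motif known from lysosomal genes and others, that of Ctsj among them, did not. RefSeq promoter windows on GRCm38.p6, 250 bases before to 50 after a start, were available for 8 of the 10 members (all but Ctsb and Ctsh). The E-box CACGTG, the core of the element bound by the lysosomal regulators of the MiT/TFE family, was searched on both strands and was found in 7.15% of all 32851 windows. Of the members, Ctsa, Ctsd and Ctsl held it. With a T before this core, the share was 3.77% of windows, and of the members Ctsa and Ctsd held this longer form, whose matches all hold the core. The AP-1 motif TGACTCA, searched in the same way, was in 5.2% of windows and in none of the 8 members. The windows of Ctsj, Ctsd and Ctsa are shown from 150 bases before to 30 after the start, in the direction of transcription and with matches in capitals, because those of Ctsd and Ctsa hold the longer form. The window of Ctsj holds neither form, and nor do those of Ctsc, Ctsk, Ctss and Ctsz or that of the upstream start of Ctsa.
Ctsj: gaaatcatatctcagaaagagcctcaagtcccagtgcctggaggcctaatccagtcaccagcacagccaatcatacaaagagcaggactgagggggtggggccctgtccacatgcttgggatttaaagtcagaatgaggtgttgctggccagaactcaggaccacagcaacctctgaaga
Ctsd: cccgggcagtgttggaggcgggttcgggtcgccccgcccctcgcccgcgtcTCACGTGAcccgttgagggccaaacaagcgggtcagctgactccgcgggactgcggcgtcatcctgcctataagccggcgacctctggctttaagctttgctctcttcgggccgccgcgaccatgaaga
Ctsa: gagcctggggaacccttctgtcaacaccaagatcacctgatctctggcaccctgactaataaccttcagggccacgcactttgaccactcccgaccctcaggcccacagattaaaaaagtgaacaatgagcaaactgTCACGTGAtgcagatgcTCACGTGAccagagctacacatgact
These are chr13:61005896-61006075 (minus strand), chr7:142387798-142387977 (minus strand) and chr2:164833623-164833802 (plus strand, the downstream of 2 listed starts of Ctsa). A match is a description of letters, not a binding site.

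Ctsb rose early and fell again. Ctsb, the abundant endo- and carboxypeptidase of many cells (chr14:63122462-63145923), was at 1780.2, 2155, 2260.2 and 2165 CPM in healthy samples and at 6713 and 6974 CPM at day 1. It was at 3285, 3113, 2995 and 3388 CPM at day 3 and at 2936, 3205, 2794 and 2454 CPM at day 7. No injured sample of any day overlapped with the healthy samples, and day 1 stood apart from all others. The log2 fold change was 1.71 (SE 0.18, edgeR quasi-likelihood test, adjusted p = 0.000256) at day 1 and 0.61 (SE 0.16, adjusted p = 0.0317) at day 3. It was 0.45 (SE 0.16, adjusted p = 0.127) at day 7, which missed the threshold. From day 1 to day 3 Ctsb fell by 1.10 on the log2 scale (SE 0.18, adjusted p = 0.00925). The day 1 call held when any single sample was left out. The day 3 call was kept in 2 of 14 such fits, those without day 3 replicate 2 and without day 7 replicate 2, with values of 0.48 to 0.65. It was also lost without day 3 replicates 3 and 4 (0.49, adjusted p = 0.0672). The fall from day 1 to day 3 was lost without either day 1 sample, with values of -1.20 to -1.06. The overlap of Ctsb with Fdft1 on the opposite strand covers 774 of 6051 exonic bases, and Fdft1 was at 11.4 to 39.2 CPM.

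Ctsb was the only 1 of the 9 lysosomal cathepsins called at day 1, where 2.42% of all tested genes were called higher and 1.64% lower. At day 3, 2 of 9 rose (Ctsb and Ctsz) and none fell, beside 4.62% of all genes higher and 2.58% lower. At day 7, 3 of 9 rose (Ctsd, Ctsk and Ctss) and none fell, beside 2.19% higher and 0.992% lower. The median log2 fold change of the 9 was 0.42, 0.61 and 0.75 at the 3 times, beside -0.03, 0.18 and 0.02 over all genes tested, and these comparisons share the healthy samples. Every injured sample lay above every healthy sample in 5 of 9 at day 1, 2 of 9 at day 3 and 8 of 9 at day 7, which held for 20%, 7.53% and 8.72% of all tested genes.

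**Figure D3:**
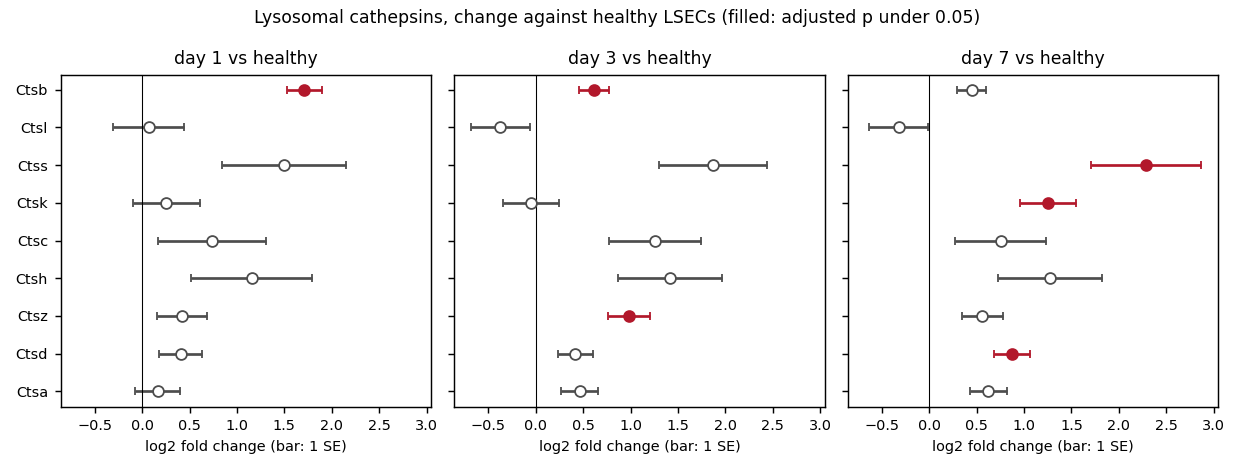
Log2 fold change against healthy LSECs (x axis, common to the panels) of the 9 lysosomal cathepsins at day 1, 3 and 7, with bars of 1 SE and filled red points for an adjusted p under 0.05. Ctsb is called at day 1, Ctsb and Ctsz at day 3, and Ctsd, Ctsk and Ctss at day 7, while Ctsl stays near or below 0.

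Ctsz, a carboxypeptidase of the lysosome (chr2:174427493-174439039), rose at day 3. It was at 279, 290, 313 and 309 CPM in healthy samples, 408 and 387 CPM at day 1, 812, 715, 411 and 422 CPM at day 3 and 443, 517, 432 and 363 CPM at day 7. Injured and healthy samples did not overlap at any time. The log2 fold change was 0.42 (SE 0.26, adjusted p = 0.466) at day 1, 0.99 (SE 0.22, adjusted p = 0.0177) at day 3 and 0.56 (SE 0.22, adjusted p = 0.167) at day 7. The day 3 call was lost without healthy replicate 1, 2 or 4 or day 3 replicate 1, with values of 0.71 to 1.01, and it was kept, at 1.23 (adjusted p = 0.000750), without day 3 replicates 3 and 4. The day 7 rise was called in 3 of 9 alternatives. The rise of Ctsz from day 1 to day 3 (0.57) and its fall from day 3 to day 7 (-0.43) were not called. Each was called in 2 of 9 alternatives, 1 of them without day 3 replicates 3 and 4.

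Ctsd, the aspartic protease of the lysosome (chr7:142375911-142388038), rose at day 7. It was at 789, 990.3, 1118 and 1069.7 CPM in healthy samples and at 1299 and 1328 CPM at day 1. At day 3 it was at 1449.5, 1346, 976 and 1529 CPM, with replicate 3 inside the healthy range, and at day 7 at 1809, 2008, 1987 and 1465 CPM. The log2 fold change was 0.41 (SE 0.23, adjusted p = 0.394), 0.42 (SE 0.19, adjusted p = 0.209) and 0.87 (SE 0.19, adjusted p = 0.0270). The day 7 call was lost without healthy replicate 1, 2 or 3 or day 7 replicate 2 or 3, with values of 0.78 to 0.97. Gm49369 shares 808 of the 2351 exonic bases of Ctsd on the same strand and was at no more than 0.434 CPM.

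Ctsa, the carboxypeptidase that protects the sialidase Neu1 in a complex (chr2:164832873-164841032), missed the threshold at every time in the model of 4 groups, but at day 7 it lay near it. It was at 223 to 293 CPM in healthy samples, 296 and 275 CPM at day 1, 267 to 463 CPM at day 3 and 334 to 438 CPM at day 7, with no overlap at day 7 (log2 fold change 0.62, SE 0.19, adjusted p = 0.0899). The day 7 rise was called in 6 of 9 alternatives, with values of 0.49 to 0.70 over the 9, and in 1 of 14 fits without 1 sample, that without day 3 replicate 4 (0.57 to 0.71 over the 14). At day 3 it was called in 2 of 9 alternatives, 1 of them without day 3 replicates 3 and 4 (0.63, adjusted p = 0.0186). Of the 4715 exonic bases of Ctsa, 495 overlap with Pltp and 324 with Neurl2, both on the opposite strand. Pltp was at 19.6 to 51.6 CPM in healthy samples and 62.6 to 76.8 CPM at day 7 (0.81, adjusted p = 0.180), Neurl2 was at 2.72 to 5.97 CPM over all samples, and their part in the Ctsa counts was not tested. Its partner Neu1 rose at day 1 (0.76, adjusted p = 0.0242), from 92.0 to 108 CPM in healthy samples to 168 and 165 CPM. At day 3 Neu1 had fallen below healthy samples (-0.57, adjusted p = 0.0318), to 53.5 to 74.2 CPM.

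Ctsk, the collagen-degrading cathepsin of osteoclasts (chr3:95499256-95509362), rose only between day 3 and day 7 among the steps tested. It was at 16.0, 13.5, 14.3 and 8.22 CPM in healthy samples, 15.6 and 15.4 CPM at day 1 and 13.8, 11.6, 12.8 and 12.0 CPM at day 3. At day 7 it was at 21.6, 45.4, 39.6 and 17.6 CPM, all above every sample of the other groups. The log2 fold change at day 7 was 1.25 against healthy samples (SE 0.29, adjusted p = 0.0388) and 1.30 against day 3 (SE 0.30, adjusted p = 0.0429). The first was lost without any 1 of the healthy or day 1 samples or day 7 replicate 2 or 3, with values of 1.01 to 1.46. The second was lost without healthy replicate 1, 2 or 3, either day 1 sample, day 3 replicate 1, 2 or 3, or day 7 replicate 2 or 3, with values of 1.06 to 1.63. Ctsk was the 1 lysosomal cathepsin called higher from day 3 to day 7, beside 0.413% of all genes higher and 1.36% lower, and Ctsb the 1 called lower from day 1 to day 3, beside 1.57% higher and 0.969% lower.

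Of 8 genes known beside Ctsk in osteoclasts and giant cells, 7 could be tested. Of these, 1 rose at day 1, 2 at day 3 and 2 at day 7, beside 2.42%, 4.62% and 2.19% of all genes. Some were thus called at times when Ctsk was not. Gpnmb, a glycoprotein of phagocytes, was at 0.0299 to 1.74 CPM in healthy samples, 26.9 and 5.31 CPM at day 1 (log2 fold change 4.22, adjusted p = 0.0162), 94.1 to 287 CPM at day 3 (7.50, adjusted p = 0.00139) and 398 to 1096 CPM at day 7 (9.74, adjusted p = 0.00179). Atp6v0d2, a subunit of the proton pump, was at 0 to 0.129 CPM in healthy samples, of which 2 had no count, at 0.748 to 4.30 CPM at day 3 (adjusted p = 0.00816) and at 42.2 to 88.7 CPM at day 7 (adjusted p = 0.00191). It also rose from day 3 to day 7 (4.78, adjusted p = 0.0223). Acp5, the tartrate-resistant acid phosphatase, was at 10.7 to 50.5 CPM in healthy samples, 140 and 54.3 CPM at day 1, 38.3 to 91.6 CPM at day 3 and 66.0 to 131 CPM at day 7 (1.46, adjusted p = 0.101), and was not called.

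Ctss, the protease that cuts the invariant chain of MHC class II (chr3:95526786-95556403), rose at day 7 and ranged widely at day 3. It was at 82.0, 279, 279 and 140.3 CPM in healthy samples and at 741 and 357 CPM at day 1. At day 3 it was at 1539.6 and 807 CPM in replicates 1 and 2 but at 271 and 237 CPM in replicates 3 and 4, inside the healthy range. At day 7 it was at 819, 1219.7, 1110.4 and 671 CPM, above every healthy sample. The log2 fold change was 1.49 (SE 0.65, adjusted p = 0.248) at day 1, 1.87 (SE 0.57, adjusted p = 0.0664) at day 3 and 2.29 (SE 0.58, adjusted p = 0.0494) at day 7. The day 7 call was lost without any 1 of the healthy or day 1 samples, day 3 replicate 2, or day 7 replicate 2, 3 or 4, with values of 2.04 to 2.52. The value at day 1 ran from 0.84 without day 1 replicate 1 to 1.90 without day 1 replicate 2. The value at day 3 fell to 1.06 without day 3 replicate 1 and reached at most 2.10 in such fits.

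Ctsc, which activates the serine proteases of immune cell granules (chr7:88278085-88310888), was at 43.9, 170.0, 185 and 154 CPM in healthy samples and at 312 and 149 CPM at day 1. It was at 679.8, 299, 186 and 159 CPM at day 3 and at 192 to 278 CPM at day 7. Ctsh, an aminopeptidase (chr9:90054152-90076089), was at 20.9, 47.3, 61.7 and 67.7 CPM in healthy samples and at 135 and 85.1 CPM at day 1. It was at 271, 178, 41.2 and 38.3 CPM at day 3 and at 107 to 137 CPM at day 7. Neither was called in any comparison of the model of 4 groups, while Ctsh at day 7 was called in 3 of 9 alternatives. The log2 fold changes of Ctsc were 0.73, 1.26 and 0.75 (SE 0.48 to 0.57) and those of Ctsh 1.15, 1.42 and 1.27 (SE 0.55 to 0.64). Single libraries moved them: at day 1 Ctsc ran from 0.059 without day 1 replicate 1 to 1.14 without day 1 replicate 2, and Ctsh from 0.74 to 1.41 without the same samples. Without day 3 replicate 1 the day 3 values were 0.54 for Ctsc and 0.67 for Ctsh, and their highest values in such fits were 1.43 and 1.60. At day 7 Ctsc ran from 0.46 without healthy replicate 1 to 0.93 without healthy replicate 3, and Ctsh from 1.02 to 1.48.

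The monocyte and neutrophil sum given above was high in the same day 3 replicates as Ctss, Ctsc and Ctsh. This split was not particular to them. Ctsz, Ctsa, Ctsl and Ctsj were also higher in day 3 replicates 1 and 2 than in replicates 3 and 4. So was the sum of 8 B, T and NK cell markers, at 294 and 186 against 96.9 and 28.0 CPM. Ctsb, Ctsd and Ctsk did not split in this way. Of the 11 monocyte and neutrophil markers, 3 were called higher at day 1, 4 at day 3 and 1 at day 7. Of 8 injury macrophage markers, 3, 5 and 4 were called higher. Over all tested genes the shares were 2.42%, 4.62% and 2.19%. The 8 injury macrophage markers summed to 549 to 632 CPM in healthy samples, 1335 and 881 CPM at day 1, 1319.7 to 3497.5 CPM at day 3 and 1722 to 7786 CPM at day 7. Within this sum, Spp1, which is also listed for cholangiocytes, was at 71.7 to 179 CPM in healthy samples and 567 to 5238 CPM at day 7. Fabp5, which the paper includes in its signature of damaged LSECs, was at 195 to 385 and 277 to 434 CPM. Of 10 macrophage and Kupffer cell markers none was called at day 1, and Cd68 alone rose at day 3 and day 7. Their sum was 342 CPM in healthy replicate 1 and 1151 to 1567 CPM in the other healthy samples. That replicate also had the lowest Ctss, Ctsc, Ctsh, Ctsa, Ctsb, Ctsd and Ctsz of the healthy group, but not the lowest Ctsk or Ctsl. The macrophage and Kupffer cell sum was 1709 and 867 CPM at day 1, 701 to 1690.2 CPM at day 3 and 822 to 1459 CPM at day 7. No marker of the monocyte and neutrophil, injury macrophage, or macrophage and Kupffer cell lists was at 0 throughout. The part of any of these cell types in the cathepsin levels was not tested. Without day 3 replicates 3 and 4, 5 of 9 lysosomal cathepsins were called higher at day 3, but over all genes 2872 were then called higher (6245 in all), against 1229 (1915 in all) with every sample. In that fit the log2 fold change was 2.45 for Ctss (adjusted p = 0.00463), 1.68 for Ctsc (adjusted p = 0.0314) and 2.05 for Ctsh (adjusted p = 0.00363).

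**Figure D4:**
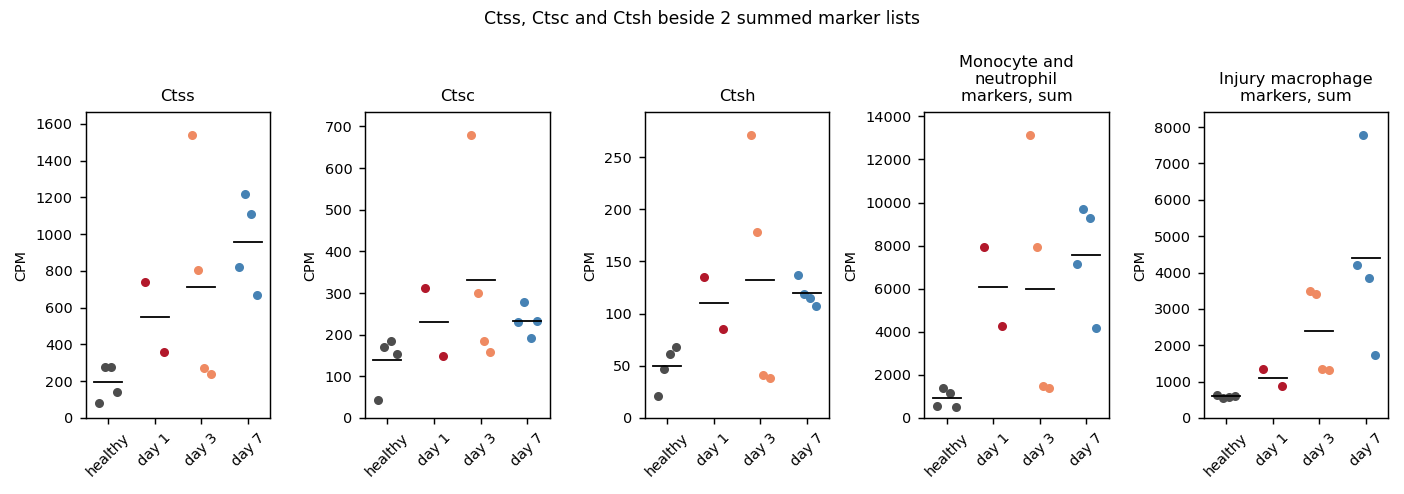
CPM (y axes, each from 0) of Ctss, Ctsc and Ctsh and the summed CPM of 11 monocyte and neutrophil markers and of 8 injury macrophage markers, with 1 point per mouse and a bar at the group mean. In all 5 panels day 3 replicates 1 and 2 lie above replicates 3 and 4.

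Ctsl, the endopeptidase closest in sequence to Ctsj among the 9 (chr13:64359337-64370890), was not called in any comparison. It was at 2034, 1947, 2167 and 1823 CPM in healthy samples and at 1515 and 2666 CPM at day 1, on either side of the healthy range. It was at 1989.9, 2311, 1094 and 760.1 CPM at day 3 and at 1752, 1317, 1444 and 1859 CPM at day 7. The log2 fold change was 0.07 (SE 0.38, adjusted p = 0.969) at day 1, -0.37 (SE 0.31, adjusted p = 0.528) at day 3 and -0.32 (SE 0.31, adjusted p = 0.586) at day 7. Without day 3 replicates 3 and 4 the day 3 value was -0.01. Ctsl shares 1742 exonic bases with Gm47123 on the opposite strand, which had no count, and the use of strand in the counting is not stated.

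Levels per kb of exon allow the members to be ranked within a group. In healthy LSECs Ctsd was highest (422 ± 61.8 CPM per kb, SD, n = 4), followed by Ctsb (345 ± 35.0) and Ctsl (307 ± 22.3). The ranges of Ctsd and Ctsb overlapped, as did those of Ctsb and Ctsl, and all 3 lay above Ctsz (206 ± 11.1). Ctss (144 ± 73.5) overlapped with its neighbours Ctsz and Ctsa (54.2 ± 6.53). Ctsc (23.8 ± 11.1), Ctsh (10.98 ± 4.63) and Ctsk (8.60 ± 2.22) followed, each overlapping with the next, and Ctsj (0.0805 ± 0.0977) was last, below all others.

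At day 1 the order changed at the top and near the bottom. Ctsb was first at 1131 ± 30.5 CPM per kb (SD, n = 2), above Ctsd at 559 ± 8.78. Ctsj was seventh of 10 at 54.7 ± 13.1, between Ctsa (60.6 ± 3.15) and Ctsc (39.7 ± 19.9), and its range overlapped with both. At day 3 Ctsj was ninth at 17.8 ± 14.7 (n = 4), between Ctsh and Ctsk, again overlapping with both. At day 7 Ctsd was first (773 ± 107) and Ctss second (703 ± 187), with overlapping ranges, and Ctsj was last at 1.00 ± 0.36. Taken per kb of the main transcript, Ctsj was ninth in place of seventh at day 1, and its rank was the same in the other groups. Added up, the 10 cathepsins took 5268 to 6692 CPM in the healthy samples and 11499 and 12328 CPM in those of day 1. The sum was 6264 to 10530.0 CPM at day 3 and 7506 to 9148 CPM after 7 days.

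Of the 5 cathepsins outside the family and the placental cluster, Ctso and Ctsf fell early. Of Ctse, Ctsf, Ctsg, Ctso and Ctsw, all tested, Ctsf and Ctso fell at day 1 and at day 3, beside 1.64% and 2.58% of all genes. None was called higher against healthy samples. Ctse was at 1.81 to 8.29 CPM in healthy samples, 28.4 and 17.0 CPM at day 1, 1.46 to 21.9 CPM at day 3 and 9.17 to 14.5 CPM at day 7. It lay above every healthy sample at day 1 (log2 fold change 2.10, SE 0.77, edgeR quasi-likelihood test, adjusted p = 0.156) and at day 7, without a call. Ctso, a widely expressed cysteine cathepsin, was at 168 to 221 CPM in healthy samples, 53.5 and 78.5 CPM at day 1, 71.0 to 99.1 CPM at day 3 and 98.1 to 168 CPM at day 7. Its log2 fold change was -1.56 at day 1 (adjusted p = 0.00476) and -1.28 at day 3 (adjusted p = 0.00338). Ctsf was at 32.2 to 39.2 CPM in healthy samples, 14.5 and 10.4 CPM at day 1 and 17.1 to 20.01 CPM at day 3 (-1.54, adjusted p = 0.00127, and -0.99, adjusted p = 0.00433). It rose from day 3 to day 7 (1.02 on the log2 scale, adjusted p = 0.0108), to 32.1 to 44.3 CPM, which overlapped with healthy samples.

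Of 20 listed cathepsin inhibitors, 18 were in the table and 16 could be tested. Ctla2a was the only 1 called against healthy samples, at day 1, beside 2.42% of all genes higher and 1.64% lower. Ctla2b and Ctla2a were the only ones called in the steps between days, as given above. Over all genes, 0.969% were called lower from day 1 to day 3 and 1.36% from day 3 to day 7. Not called but above every healthy sample at day 1 were Stfa2, Stfa2l1, Stfa3, BC100530 and BC117090 (log2 fold change 5.66 to 8.56, edgeR quasi-likelihood test, adjusted p = 0.0624 to 0.119). So were Ctla2b (1.72, same test, adjusted p = 0.0512), Cstb and Serpina3g. Over all tested genes, 20% lay above every healthy sample at day 1. Stfa2l1, the highest of them, went from at most 0.564 to 20.2 and 8.21 CPM. Serpinb6a and Serpinb9 lay below every healthy sample at day 1, also without a call. The median of the 16 at day 1 was 1.48, beside -0.03 over all genes. Cst3, cystatin C, was at 463 to 826 CPM in healthy samples, 685 and 626 CPM at day 1, 289 to 1993 CPM at day 3 and 680.4 to 928 CPM at day 7. Cstb, cystatin B, was at 145 to 282 CPM in healthy samples and at 337 CPM in both day 1 samples, 75.0 to 522 CPM at day 3 and 133 to 201 CPM at day 7. Serpina3g, a serpin that inhibits cathepsins, was at 263 to 345 CPM in healthy samples, 816 and 579.9 CPM at day 1 (1.23, adjusted p = 0.0630), 428 to 559 CPM at day 3 (0.77, adjusted p = 0.131) and 231 to 628 CPM at day 7. All its samples of day 1 and day 3 lay above the healthy ones, though neither time was called. Serpinb6a was at 82.2 to 228 CPM in healthy samples, 59.9 and 79.5 CPM at day 1, 90.5 to 245 CPM at day 3 and 53.9 to 134 CPM at day 7.

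Of 10 genes for sorting, processing and partners, Igf2r, a mannose 6-phosphate receptor, rose at day 7 (1.11, adjusted p = 0.0420), from 7.83 to 9.67 CPM to 12.1 to 26.0 CPM. Neu1 was the only other 1 called. Lgmn, the endopeptidase legumain, which processes cathepsins, was at 551 to 759 CPM in healthy samples and 909 and 768 CPM at day 1. It was at 263 to 516 CPM at day 3, below every healthy sample (-0.72, adjusted p = 0.103, not called), and 344 to 682 CPM at day 7. Psap, the precursor of the saposins, was at 317 to 1076 CPM in healthy samples, 1151.5 and 466 CPM at day 1, 537 to 1634 CPM at day 3 and 736 to 2072 CPM at day 7. Of the 4 MiT/TFE factors, Mitf rose at day 3 (1.66, adjusted p = 0.00751) and day 7 (2.06, adjusted p = 0.00600), from 3.44 to 5.59 CPM in healthy samples to 7.73 to 21.5 and 13.6 to 21.5 CPM. Tfeb fell at day 3 (-0.91, adjusted p = 0.0121), from 13.97 to 16.4 CPM to 6.86 to 9.21 CPM. Over all tested genes, 2.42% rose at day 1, 4.62% rose and 2.58% fell at day 3, and 2.19% rose at day 7.

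The genes whose log2 CPM followed Ctsj most closely over the 14 samples were ranked by Pearson correlation among 16823 genes. The first 10 were Il17ra (r = 0.957), Acot7, Slfn4, Tubb3, Ifi207, Kcnj8, Cxcl2, 1700017B05Rik, Psg22 and Plek (r = 0.933). The 14 points share 4 groups, so the values describe the common order of the groups. Slfn4 was at 0.366 to 2.54 CPM in healthy samples, 87.1 and 69.9 CPM at day 1, 5.30 to 49.1 CPM at day 3 and 2.52 to 3.37 CPM at day 7. Psg22, a pregnancy-specific glycoprotein gene, was at 0.103 to 0.198 CPM in healthy samples and at 12.7 and 23.2 CPM at day 1. It was at 2.39 to 5.38 CPM at day 3 and at 0.568 to 1.61 CPM at day 7. Cxcl2, a chemokine for neutrophils, was at 78.1 to 238 CPM in healthy samples, 1604 and 701 CPM at day 1, 498 to 1214 CPM at day 3 and 229 to 411 CPM at day 7. For the lysosomal cathepsins, the closest genes were Lyz2 for Ctsa (r = 0.971), Frrs1 for Ctsb (r = 0.953), Fcgr1 for Ctsc (r = 0.929) and Matk for Ctsd (r = 0.942). They were Igsf6 for Ctsh (r = 0.949), Thbs4 for Ctsk (r = 0.848), Zfp958 for Ctsl (r = 0.925), Tm6sf1 for Ctss (r = 0.974) and Cox7a1 for Ctsz (r = 0.957).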

How the data were processed

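Bulk RNA-seq of sorted LSECs from 14 mice was analysed, grouped by the sample labels. The authors ran FastQC and AfterQC on the reads, STAR for alignment (GRCm38.p6) and StringTie for assembly. The deposited values are raw counts, whole numbers per Ensembl gene. The annotation release, the use of strand and the step from StringTie to counts are not given in the sources used here. Genes (54495 of 54524 matched GENCODE vM21) were filtered with filterByExpr (minimum count 10, minimum total 15), scaled with TMM and tested with edgeR 4.0.16 (quasi-likelihood F test, R 4.3.3) in 1 model of 4 group means, with Benjamini-Hochberg adjustment over 26626 genes and a threshold of 0.05. SE was the absolute log2 fold change over the square root of F, and log2 CPM used a prior count of 2. The p-values rest on 2 to 4 mice a group. Alternatives were DESeq2 1.42.0, limma 3.58.1 voom, other scalings and filters, 2-group models, a replicate block and leaving out each sample. Scripts were tested on simulated data. All 10 cathepsins were named, with context genes that passed the test or averaged 100 CPM or more in a group. The members and lists were chosen with earlier results of these data known. Promoters came from RefSeq, and coding sequences and levels per kb from GENCODE.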

Additional observations from a re-analysis of the deposited data

Results flagged for a closer look

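Among the lysosomal cathepsins, 2 changed between days by the edgeR quasi-likelihood test. Ctsb fell from day 1 to day 3 (log2 fold change -1.10, adjusted p = 0.00925), with every day 3 sample below both day 1 samples. Ctsk rose from day 3 to day 7 (log2 fold change 1.30, adjusted p = 0.0429), with every day 7 sample above every day 3 sample. No single sample of a group of 4 stood far enough from the other 3 in a listed cathepsin to pass Dixon's limit for 4 samples.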

How the results depend on the processing

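Only the rise of Ctsb at day 1 was called in all 9 alternatives and all 14 fits without 1 sample. Of the 9 lysosomal cathepsins, the number called at day 3 (2), at day 7 (3), from day 1 to day 3 (1) and from day 3 to day 7 (1) moved as follows. DESeq2 called 5 at day 7. Limma voom with sample quality weights called 7 at day 3, 7 at day 7, 2 from day 1 to day 3 and 2 from day 3 to day 7. With no filter on low counts 0 were called at day 3, day 7 and from day 3 to day 7, and more genes share the adjustment there. With only the 2 groups compared the numbers were 0 at day 3, 6 at day 7 and 0 in both steps between days. Without day 3 replicates 3 and 4, an alternative chosen after seeing the data, they were 5, 6, 2 and 2. Without 1 sample at a time they ran from 0 to 2 at day 3, from 0 to 4 at day 7 and from 0 to 1 in each step, and stayed at 1 at day 1. These numbers stand beside those of all genes, which moved too. Over all genes, 1080 were called at day 1, 1915 at day 3, 846 at day 7, 676 from day 1 to day 3 and 472 from day 3 to day 7. DESeq2 called 2744, 3633, 2602, 2314 and 1663. Voom called 7265 at day 3, 7047 at day 7 and 3344 and 6002 in the steps. With no filter 1549 were called at day 3, 596 at day 7 and 157 from day 3 to day 7. With 2 groups they were 1108, 3156, 189 and 1, and without day 3 replicates 3 and 4 they were 6245, 4042, 2784 and 6133. Without 1 sample at a time they ran from 164 (without day 1 replicate 1) to 1845 at day 1, from 946 (without healthy replicate 2) to 3314 at day 3 and from 193 (without healthy replicate 1) to 2166 at day 7, the highest each time without day 3 replicate 4. The causes were not tested.

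The mice are different animals and their numbers did not pair them (18 correlations of -0.32 to 0.20, 1 of 14 samples closest to its own number). With the replicate block 1 was called at day 1, 1 at day 3, 0 at day 7, 1 from day 1 to day 3 and 0 from day 3 to day 7 (1385, 435, 311 and 244 of all genes at day 3, day 7 and in the steps), and the sign turned for Ctsl at day 1 (-0.15), Ctsk at day 3 (0.0048) and Ctsh from day 3 to day 7 (0.062).

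No called value changed sign. Values that were not called did. From day 3 to day 7, voom gave Ctsa -0.065 and Ctsl -0.33, library size scaling gave Ctsh 0.0083, and leaving out day 3 replicates 3 and 4 gave Ctsl -0.30 and Ctss -0.17. From day 1 to day 3, Ctsd was -0.12 with no filter, -0.034 with 2 groups and -0.012 without day 3 replicates 3 and 4. Without 1 sample at a time, Ctsk at day 3 ran from -0.32 to 0.066 and Ctsl at day 1 from -0.42 to 0.39. From day 1 to day 3 the ranges were -0.16 to 1.04 for Ctsc, -0.14 to 0.036 for Ctsd, -0.45 to 0.50 for Ctsh and -0.41 to 0.87 for Ctss. From day 3 to day 7 they were -0.23 to 0.037 for Ctsb, -0.62 to 0.23 for Ctsc, -0.33 to 0.62 for Ctsh and -0.069 to 0.34 for Ctsl. Few or no reads limit Ctsj in healthy samples, where 2 libraries had none. These were healthy replicate 1, the deepest library of all (103912264 counts), and replicate 4 (86336696 counts). Replicate 2 had 24 counts of Ctsj out of 85458439. The number of mice, 2 at day 1, limits the tests.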
